A study of Mus musculus with 31 samples.

Results

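A module of 31 genes of cholesterol synthesis and sterol regulation was examined in RNA sequencing of mouse cortex and of CD11b+ microglia. The members were taken from a list of gene symbols, with no measured value in the rule, and 31 of 31 were found among the 55401 genes of the count tables. All 31 passed the low-count filter in each of the 6 comparisons. They were sorted into 6 roles, namely 6 enzymes of the mevalonate arm, 3 enzymes at the prenyl branch point, 10 enzymes of the sterol ring steps, 5 genes of the SREBP system, 3 genes for the LXR receptors and a target of theirs, and 4 genes of sterol transport and removal.

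Cells build cholesterol from acetyl-CoA through mevalonate and the prenyl diphosphates to squalene, which is closed into a ring and trimmed to cholesterol. When sterol is scarce, SCAP carries the SREBP transcription factors to the Golgi, where they are cut free to switch on genes of synthesis and uptake, whereas the INSIG proteins hold them back, and the LXR receptors answer to oxysterols when sterol is plentiful. The brain makes its own cholesterol because lipoproteins do not pass the blood-brain barrier, and neurons hydroxylate the surplus with CYP46A1 so that it can leave. Microglia take up sterol with myelin and debris, and NPC1 and NPC2 export it from their lysosomes.

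The 31 libraries came from mice on a C57Bl/6J background at 13 months of age, and each is labelled with the number of a mouse. The study asked whether the PLCγ2-P522R knock-in (KI), a protective variant of a signaling enzyme of microglia that was introduced into the mouse gene with CRISPR/Cas9, alters microglia with and without β-amyloid pathology. CD11b+ cells were isolated with magnetic beads from the dissociated brain of male WT mice (n = 3), male homozygous KI mice (n = 4), and female A-/Pwt/wt (n = 7), A+/Pwt/wt (n = 4) and A+/Pki/ki (n = 4) mice. Bulk temporo-occipital cortex came from female A-/Pwt/wt (n = 1), A+/Pwt/wt (n = 4) and A+/Pki/ki (n = 4) mice. A+ mice carry the APP/PS1 transgene, which holds APPswe and PS1dE9 under the mouse prion protein promoter. The males carry no transgene. The KI changes a codon of *Plcg2*, which gene counts do not show, so that the genotype labels were used as given.

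Counts assigned to genes ranged from 16229831 to 19946001 per male library, from 18918255 to 25118180 per female CD11b+ library and from 25226544 to 43129427 per cortex library. All 12 microglia markers were present in every CD11b+ group, with a summed level of 12980 to 29940 CPM (counts scaled to a common library size) against 442.5 to 1021 CPM in cortex. The CD11b+ libraries also held RNA of other cells, with 12 oligodendrocyte markers at 7008 to 74660 CPM in sum against 4077 to 6816 CPM in cortex, and 12 neuron markers at 182.1 to 4486 CPM against 13070 to 14860 CPM. The labels use number 236 in both tissues, with the genotype A-/Pwt/wt in CD11b+ cells but A+/Pwt/wt in cortex, and both libraries were kept under their labels. Both A+ groups of CD11b+ microglia share 1 batch tag and the A-/Pwt/wt females carry another, so that transgene and batch cannot be told apart between them. In bulk RNA, fewer cells of a type and less RNA per cell cannot be told apart.

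The promoters of 5 members are printed because the results turn on them. *Hmgcs1*, *Idi1*, *Cyp51* and *Sc5d* are enzymes that were higher in KI males, and *Ebp* is the ring enzyme that was higher in microglia than in cortex. Each window runs from 250 bases before to 50 bases after the RefSeq transcription start in GRCm38.p6, 5′ to 3′ along the strand of the gene. They lie at chr13:119690101-119690400 on the plus strand (*Hmgcs1*), chr13:8885356-8885655 on the plus strand (*Idi1*), chr5:4104648-4104947 on the minus strand (*Cyp51*), chr9:42264251-42264550 on the minus strand (*Sc5d*) and chrX:8193463-8193762 on the minus strand (*Ebp*). Capitals mark a sterol response element, the letters TCACNCCAC to which SREBP binds, and the box CCAAT, which reads ATTGG on the other strand and to which NF-Y binds.
Hmgcs1: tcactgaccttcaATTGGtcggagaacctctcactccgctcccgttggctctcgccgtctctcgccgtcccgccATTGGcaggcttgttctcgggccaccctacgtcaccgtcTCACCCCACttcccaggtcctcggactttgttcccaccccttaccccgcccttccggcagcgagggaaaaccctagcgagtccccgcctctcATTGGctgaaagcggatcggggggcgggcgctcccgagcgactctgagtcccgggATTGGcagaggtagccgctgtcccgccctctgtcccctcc
Idi1: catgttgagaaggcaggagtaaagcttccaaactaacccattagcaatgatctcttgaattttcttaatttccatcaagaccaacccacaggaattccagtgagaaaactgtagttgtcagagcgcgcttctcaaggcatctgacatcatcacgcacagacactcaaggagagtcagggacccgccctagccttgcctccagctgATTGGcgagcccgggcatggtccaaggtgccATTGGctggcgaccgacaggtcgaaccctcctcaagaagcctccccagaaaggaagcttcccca
Cyp51: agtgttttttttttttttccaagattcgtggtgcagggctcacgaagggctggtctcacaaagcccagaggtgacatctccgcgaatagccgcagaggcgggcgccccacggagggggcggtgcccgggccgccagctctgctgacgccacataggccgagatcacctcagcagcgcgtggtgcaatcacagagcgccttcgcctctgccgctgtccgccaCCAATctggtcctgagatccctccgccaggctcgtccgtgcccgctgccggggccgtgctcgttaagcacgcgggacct
Sc5d: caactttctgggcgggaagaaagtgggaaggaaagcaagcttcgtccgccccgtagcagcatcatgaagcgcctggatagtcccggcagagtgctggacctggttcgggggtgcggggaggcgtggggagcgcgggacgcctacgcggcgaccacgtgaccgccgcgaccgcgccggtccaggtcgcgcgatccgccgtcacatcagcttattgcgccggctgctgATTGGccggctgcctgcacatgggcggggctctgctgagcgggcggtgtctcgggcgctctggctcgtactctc
Ebp: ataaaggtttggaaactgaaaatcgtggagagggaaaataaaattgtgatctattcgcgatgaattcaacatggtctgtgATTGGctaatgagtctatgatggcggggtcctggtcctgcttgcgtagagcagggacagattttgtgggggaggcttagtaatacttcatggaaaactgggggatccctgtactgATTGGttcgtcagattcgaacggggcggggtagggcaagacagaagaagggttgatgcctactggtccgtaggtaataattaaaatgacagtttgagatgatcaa

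Windows of this kind were at hand for 26 of the 31 members, and motifs were searched on both strands, with overlaps between motifs allowed. The letters TCACNCCAC occurred in 1 of 26 members, *Hmgcs1*, where they read TCACCCCAC and begin at -137 from the start, against 1.4% of 27025 genes with a window. CCAAT was found in 22 of 26 members (84.6%) against 41.1% of those genes, and against 42.2% of the 13065 of them that were tested between cortex and microglia. The GC box GGGCGG, bound by SP1, occurred in 22 of 26 (84.6%) as well, against 38.2% of all and 63.6% of the tested genes. The members lacking CCAAT in a window were *Acat2*, *Scap*, *Nr1h2* and *Nr1h3*. These are matches of letters in a fixed window, and no binding was measured.

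To place the module, cortex of A+/Pwt/wt females was compared with CD11b+ microglia of A+/Pwt/wt females (n = 4 each), which are different mice. A total of 28 of 31 members differed at an adjusted p (FDR) under 0.05, where 77.9% of the 18541 genes tested were called. Of the members, 23 were higher in cortex and 5 were lower, and of all genes 40.2% were higher and 37.7% lower. The median log2 fold change (log2FC, cortex over microglia) of the members was 0.75, beside 0.06 for all genes. Tissue, RNA extraction and library handling changed together and cannot be told apart. Levels here are CPM on a scale shared by these 8 libraries, and levels of different genes were compared only per kilobase of exon.

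Transcripts of 5 of 6 enzymes of the mevalonate arm, of 3 of 3 at the branch point and of 9 of 10 of the ring steps were higher in cortex. *Cyp46a1*, the neuronal hydroxylase that clears cholesterol, was at 232.8, 243.2, 247.1 and 249.8 CPM in cortex and at 9.46, 11.8, 11.9 and 20.0 CPM in microglia (log2FC 4.19, SE 0.22, FDR 2.36e-08), the widest gap of the module toward cortex. *Fdft1*, squalene synthase, was at 89.8, 94.7, 112.5 and 113.6 CPM against 16.4, 16.6, 16.8 and 22.1 CPM (log2FC 2.51, SE 0.13, FDR 3.05e-08). The *Fdft1* count is uncertain, because 774 of its exon bases overlap *Ctsb* on the other strand and strand was not used in counting. For *Hmgcs1*, HMG-CoA synthase, the cortex libraries held 198.2 to 247.7 CPM and the microglia libraries 53.6 to 80.7 CPM (log2FC 1.75, SE 0.14, FDR 5.7e-07). No cortex library reached down to a microglia library for any of these genes. The thiolase *Acat2* (log2FC 2.18), squalene epoxidase *Sqle* (2.08), the sterol ketone reductase *Hsd17b7* (1.74), the methyl sterol oxidase *Msmo1* (1.30), the transcription factor *Srebf2* (1.13) and mevalonate diphosphate decarboxylase *Mvd* (1.11) followed. The other called members with a positive log2FC lay between 0.31 (*Dhcr7*, the enzyme of a last step to cholesterol, FDR 0.0415) and 1.22 (*Fdps*, farnesyl diphosphate synthase).

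The 5 members that were higher in microglia act mostly beyond synthesis. *Npc2*, the soluble lysosomal cholesterol carrier, was at 70.2, 83.5, 86.9 and 92.4 CPM in cortex and at 893.4, 915.7, 1044 and 1069 CPM in microglia (log2FC -3.56, SE 0.13, FDR 4.05e-09). *Mylip*, an LXR target whose product sends the LDL receptor to degradation, was at 15.02 to 18.49 CPM in cortex and 144.8 to 251.2 CPM in microglia (log2FC -3.64, SE 0.18, FDR 1.58e-08). The gene of the partner of NPC2 in lysosomal export, *Npc1*, was at 50.3 to 55.8 CPM against 98.3 to 221.5 CPM (log2FC -1.72, SE 0.21, FDR 2.17e-05). The groups did not overlap for any of the 3 genes, and a single microglia library, 331, was the lowest of its group for *Mylip* and *Npc1*. The LXRβ gene *Nr1h2* (log2FC -0.76, FDR 2.99e-05) and the sterol isomerase *Ebp* (log2FC -1.10, SE 0.13, FDR 1.53e-05) completed the list. *Ebp* was at 12.25 to 18.37 CPM in cortex and 30.96 to 33.56 CPM in microglia, opposite to the other 9 enzymes of the ring steps. Its promoter printed above holds CCAAT on the other strand, as do those of *Hmgcs1*, *Idi1* and *Sc5d*, which were higher in cortex.

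Of the members that were not called, phosphomevalonate kinase *Pmvk* had a log2FC of 0.24 (FDR 0.111), *Srebf1* of -0.17 (FDR 0.132) and the LXRα gene *Nr1h3* of -0.33 (FDR 0.116). The directions of *Srebf1* and *Nr1h3* depended on how libraries were scaled. With library size as the only scaling, the median of all genes moved from 0.06 to 0.42 and that of the members to 1.12, *Srebf1* and *Nr1h3* turned to 0.20 and 0.04, and *Pmvk* was called (log2FC 0.61, FDR 0.000845), so that 24 members were higher and 5 lower. Relative to the median of all genes, the members were shifted on both scales. The 5 members higher in microglia were called under both.

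Per kilobase of exon, the order of the members differed between the tissues. In cortex *Cyp46a1* led with 74.0 ± 2.28 CPM per kb (SD, n = 4), followed by *Hmgcs1* with 48.0 ± 4.84, *Srebf2* with 38.7 ± 1.40, *Fdft1* with 24.3 ± 2.88 and *Insig1*, a brake on SREBP, with 23.6 ± 1.52. The last 2 overlapped in their libraries. In microglia *Npc2* led with 180.3 ± 16.4 CPM per kb, followed by *Mylip* with 64.8 ± 14.1, *Nr1h2* with 23.6 ± 1.08, *Srebf2* with 17.7 ± 1.03 and *Npc1* with 15.4 ± 4.80, of which the last 2 overlapped. *Fdps* was lowest in both, with 0.32 CPM per kb in cortex and 0.14 in microglia. Its count is uncertain, because 21.4% of the stretches of 100 bases in its transcripts are also found in other genes, among them a gene that overlaps it on the same strand and processed pseudogenes, and reads of this kind can be lost from a count of uniquely mapped reads.

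**Figure D1:**
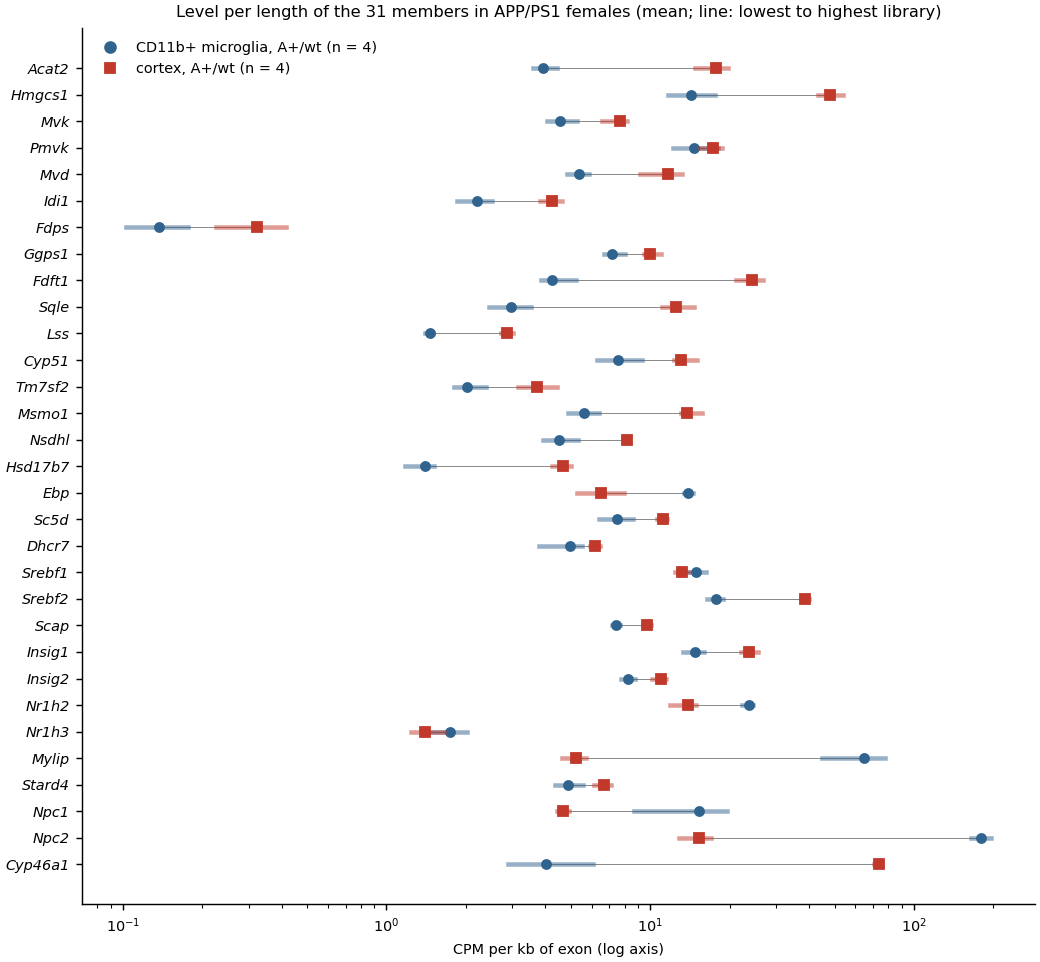
Level of each of the 31 members per kilobase of exon (CPM per kb, log axis) in cortex (squares) and CD11b+ microglia (circles) of A+/Pwt/wt females, as the mean of 4 libraries with a line from the lowest to the highest library. The squares lie to the right of the circles for most enzymes, whereas *Ebp*, *Nr1h2*, *Mylip*, *Npc1* and *Npc2* lie the other way, as do *Srebf1* and *Nr1h3*, which were not called.

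Male KI microglia were then compared with male WT microglia, the comparison without β-amyloid. A total of 7 of 31 members were called, all of them higher in KI, where 16.4% of the 16373 genes tested were called in either direction and 11.1% were higher. They were *Hmgcs1*, *Pmvk* and *Idi1* of the mevalonate arm (3 of 6 members), *Fdft1* at the branch point (1 of 3), *Cyp51* and *Sc5d* of the ring steps (2 of 10) and *Cyp46a1* (1 of 4 of transport and removal). None of the 5 genes of the SREBP system or of the 3 genes of the LXR group was called, and 0 and 1 of these had an unadjusted p under 0.05. The log2FC was positive in 22 of 31 members with a median of 0.16, beside 49.8% positive and a median of -0.0012 for all genes.

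These calls depended on how libraries were scaled. The CPM values and tests below use TMM factors, which assume that most genes do not differ. With library size as the only scaling, 3 members were called, *Hmgcs1*, *Idi1* and *Cyp46a1*, where 19.4% of all genes were called. *Pmvk*, *Fdft1*, *Cyp51* and *Sc5d* then had an FDR between 0.077 and 0.0996 and a log2FC between 0.34 and 0.38. The median of all genes moved from -0.0012 to -0.12 and that of the members from 0.16 to 0.05, and the calls over all genes moved from 1824 higher and 861 lower to 1582 higher and 1590 lower. Of the members, 16 were then positive, with *Ggps1*, *Lss*, *Hsd17b7*, *Ebp*, *Dhcr7* and *Insig2* turning negative.

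*Hmgcs1*, which makes HMG-CoA, the substrate of the reductase that sets the pace of synthesis, was at 37.0, 37.2 and 37.3 CPM in WT and at 55.0, 55.3, 56.4 and 61.7 CPM in KI males (log2FC 0.62, SE 0.09, FDR 0.00441). The WT libraries were within 1 CPM of each other, and every KI library was above them. *Idi1*, which turns isopentenyl diphosphate into its isomer, was at 3.48, 3.54 and 5.35 CPM in WT and at 7.08, 7.44, 7.87 and 9.37 CPM in KI (log2FC 0.95, SE 0.21, FDR 0.0182). *Pmvk* was at 14.2, 16.3 and 16.3 CPM in WT and at 18.8, 21.6, 22.4 and 22.6 CPM in KI (log2FC 0.45, SE 0.12, FDR 0.0345). Neither gene overlapped between the groups. Of the other enzymes of this arm, *Acat2* was at 4.65, 6.64 and 7.35 CPM in WT and at 7.78, 9.77, 10.3 and 10.3 CPM in KI, without overlap but with an FDR of 0.0628 (log2FC 0.62). *Mvk*, mevalonate kinase, had a log2FC of 0.36 (FDR 0.147) and *Mvd* of -0.03 (FDR 0.901), and both overlapped.

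*Fdft1*, the step that commits farnesyl diphosphate to sterols, was at 11.7, 11.7 and 13.8 CPM in WT and at 16.97, 17.16, 17.16 and 17.67 CPM in KI (log2FC 0.48, SE 0.12, FDR 0.0271). The other enzymes of the branch point, *Ggps1*, which feeds protein prenylation (log2FC 0.04, FDR 0.817), and *Fdps* (log2FC -0.16, FDR 0.862), were not called. Among the ring steps, *Cyp51*, the lanosterol demethylase, was at 16.9, 18.6 and 19.6 CPM in WT and at 23.8, 25.0, 25.2 and 27.7 CPM in KI (log2FC 0.47, SE 0.11, FDR 0.0222). *Sc5d*, the lathosterol desaturase, was at 19.0, 21.3 and 22.1 CPM in WT and at 23.66, 29.64, 31.04 and 32.94 CPM in KI (log2FC 0.50, SE 0.14, FDR 0.0367). All KI libraries were above all WT libraries for these genes, and library 104 was the lowest of the KI group for *Sc5d*. *Sqle* did not overlap either, at 9.65, 9.69 and 11.2 CPM against 11.5, 14.7, 15.9 and 17.8 CPM, but its FDR was 0.0522 (log2FC 0.56). The other 7 ring enzymes had a log2FC between -0.07 (*Tm7sf2*) and 0.29 (*Msmo1*) and overlapped.

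*Cyp46a1* was at 5.71, 5.94 and 6.64 CPM in WT and at 8.75, 9.12, 13.6 and 17.5 CPM in KI (log2FC 1.00, SE 0.26, FDR 0.029), with no overlap and with the KI libraries spread over a wider range than those of WT. Of the SREBP system, *Srebf2* had a log2FC of 0.24 (95% interval 0.01 to 0.48, FDR 0.19), *Srebf1* of 0.16 (-0.04 to 0.36), *Insig1* of 0.18 (-0.22 to 0.58), and *Scap* and *Insig2* of -0.03 and 0.04. *Nr1h3*, at 2.67 to 4.02 CPM in WT and 4.21 to 5.11 CPM in KI, did not overlap and was not called (log2FC 0.43, FDR 0.198). The same held in the other direction for *Mylip*, at 273.7, 283.0 and 308.0 CPM in WT and 149.2, 204.7, 253.0 and 259.7 CPM in KI (log2FC -0.41, FDR 0.14), and for *Npc1*, at 181.8 to 186.5 against 124.4 to 169.4 CPM (log2FC -0.30, FDR 0.116). In total, 12 members did not overlap between the male groups, 10 with KI higher and 2 with WT higher, where 30.8% of all tested genes did not overlap. With library size as the only scaling, 9 members did not overlap, where 34.6% of all genes did not. KI was higher for *Hmgcs1*, *Pmvk*, *Idi1*, *Fdft1*, *Cyp51* and *Cyp46a1* and WT for *Nr1h2*, *Mylip* and *Npc1*, whereas *Acat2*, *Sqle*, *Sc5d* and *Nr1h3* overlapped on that scale.

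The libraries decided how many members passed. With 1 library left out, 1 to 13 members were called. *Hmgcs1* was called in 7 of 7 such fits, *Idi1* in 5, *Fdft1* and *Cyp51* in 3 each, and *Pmvk*, *Sc5d* and *Cyp46a1* in 2 each. Only *Hmgcs1* passed without WT library 102 or without WT library 94, 3 members passed without WT library 101, 3 without KI library 136 and 2 without KI library 139. Calls over all genes fell in these fits too, from 2685 of 16373 genes with all libraries. They numbered 894 of 16193, 1111 of 16127 and 1236 of 16199 genes without WT library 102, 94 or 101. Without KI library 136 or 139 they numbered 1771 of 16163 and 1353 of 16167 genes. Without KI library 104, 13 members were called, 12 of them higher, with *Acat2*, *Sqle*, *Srebf1*, *Srebf2* and *Stard4* added and *Mylip* lower, where that fit called 33.5% of its 16242 genes. DESeq2 called 9 members, the 7 and *Acat2* and *Sqle*, where it called 22.7% of all genes. The counts of *Acat2* (28.9%), *Idi1* (21.9%) and *Fdft1* (18.4%) are uncertain, in that these shares of their stretches of 100 bases also occur in other genes. Strand was not used in counting, so that reads from exon bases shared with a gene on the other strand cannot be told apart. Such bases numbered 774 for *Fdft1* (with *Ctsb*), 557 for *Hmgcs1* (with an antisense gene), 323 for *Idi1* and 166 for *Cyp51* (with *Akap9*).

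Markers of other cells moved with the same comparison. All 12 neuron markers were called higher in KI males (median log2FC 2.11), from 215.1 to 307.3 CPM in sum in WT to 674.5 to 1554 CPM in KI, and the groups did not overlap. All 12 astrocyte markers (median 1.20), 8 of 12 oligodendrocyte markers (1.09), 4 of 12 endothelial and mural markers (0.78) and 1 of 6 markers of oligodendrocyte precursors (0.85) were called higher too. None of 6 choroid plexus, 7 border macrophage and 6 neutrophil markers was called, nor the 1 of 6 lymphocyte markers that was tested. Of the 12 microglia markers, 1 was called lower and the median log2FC was -0.36, with summed levels of 28160 to 29220 CPM in WT and 17390 to 29940 CPM in KI. *Cyp46a1*, *Fdft1* and *Hmgcs1*, at a log2FC above 1 toward cortex, were among the 7, and the share of neuronal or glial RNA in their difference was not tested.

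**Figure D2:**
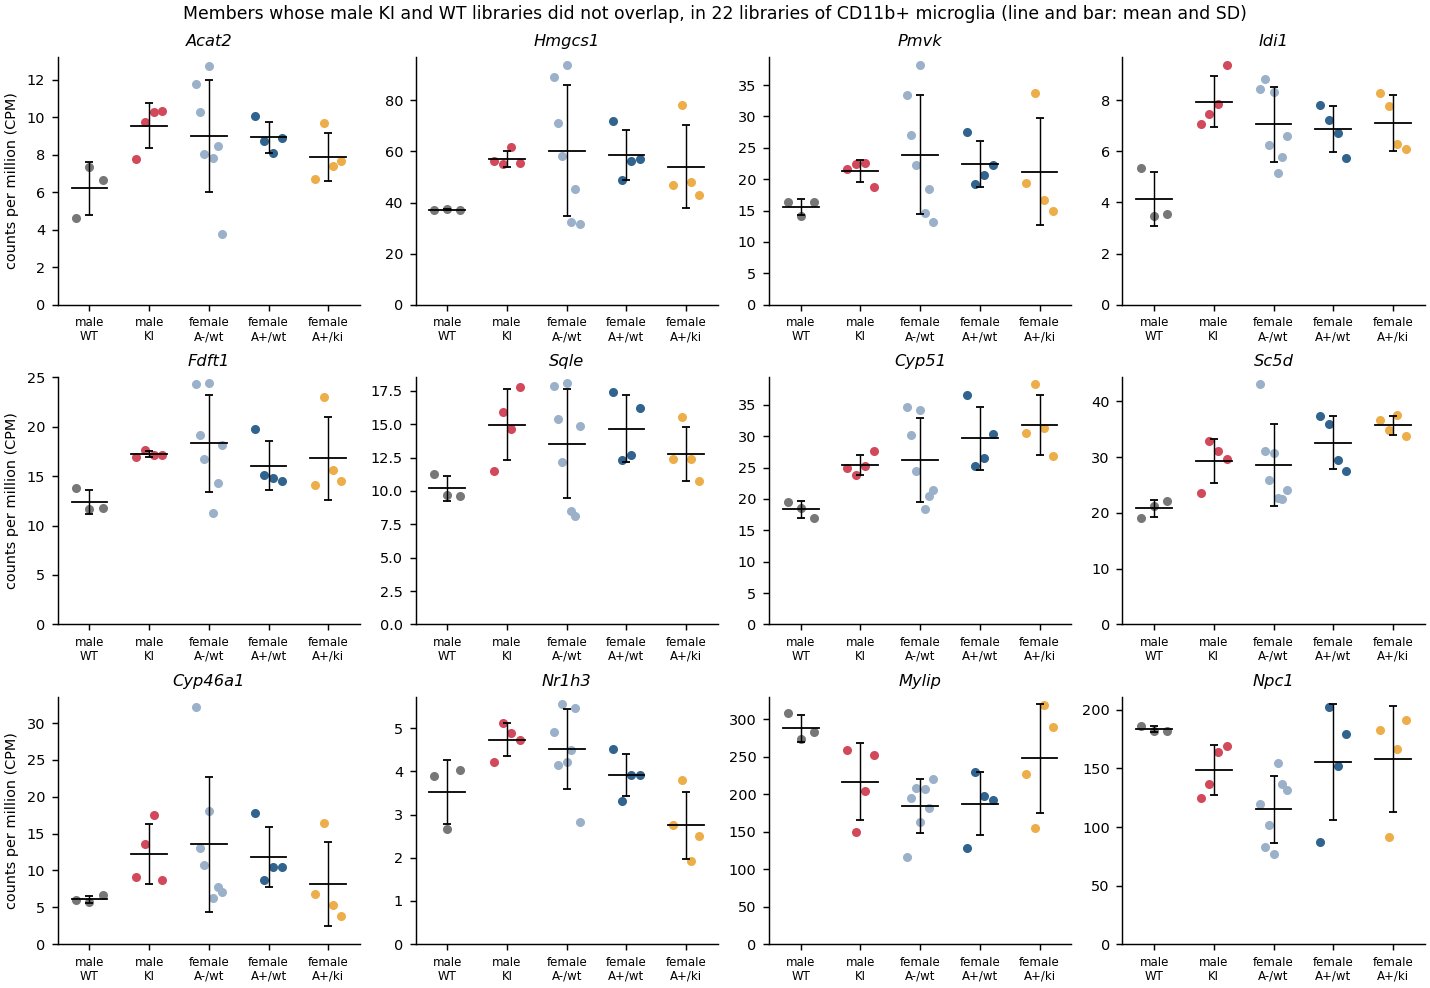
CPM (scaled by TMM) of the 12 members whose male KI and WT libraries did not overlap on this scale, in each of the 22 libraries of CD11b+ microglia (1 point per mouse), with the mean and SD of each group. In males the KI points lie above the WT points for 10 genes and below them for *Mylip* and *Npc1*, and in females the points of A+/Pki/ki and A+/Pwt/wt mice overlap for all 12. Male and female libraries were scaled apart.

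Side by side, the log2FC of cortex over microglia and that of male KI over WT ran together across the 31 members, with Pearson's r of 0.66 and Spearman's rho of 0.55, beside r of 0.54 and rho of 0.51 over 16025 genes tested in both. These comparisons share no library, and genes are not independent replicates, so that no p is given. Of the 10 members at a log2FC above 1 toward cortex, 8 were positive in KI males with a median of 0.39. Of the other 21 members, 14 were positive with a median of 0.07. Over all genes the shares were 86.0% of 3485 genes (median 0.64) and 40.3% of 12540 genes (median -0.08). *Hmgcs1* (tissue 1.75, male KI 0.62) and *Cyp46a1* (4.19 and 1.00) lay high on both axes, whereas the tissue values were lower for *Pmvk* (0.24 and 0.45), *Sc5d* (0.57 and 0.50) and *Cyp51* (0.80 and 0.47).

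**Figure D3:**
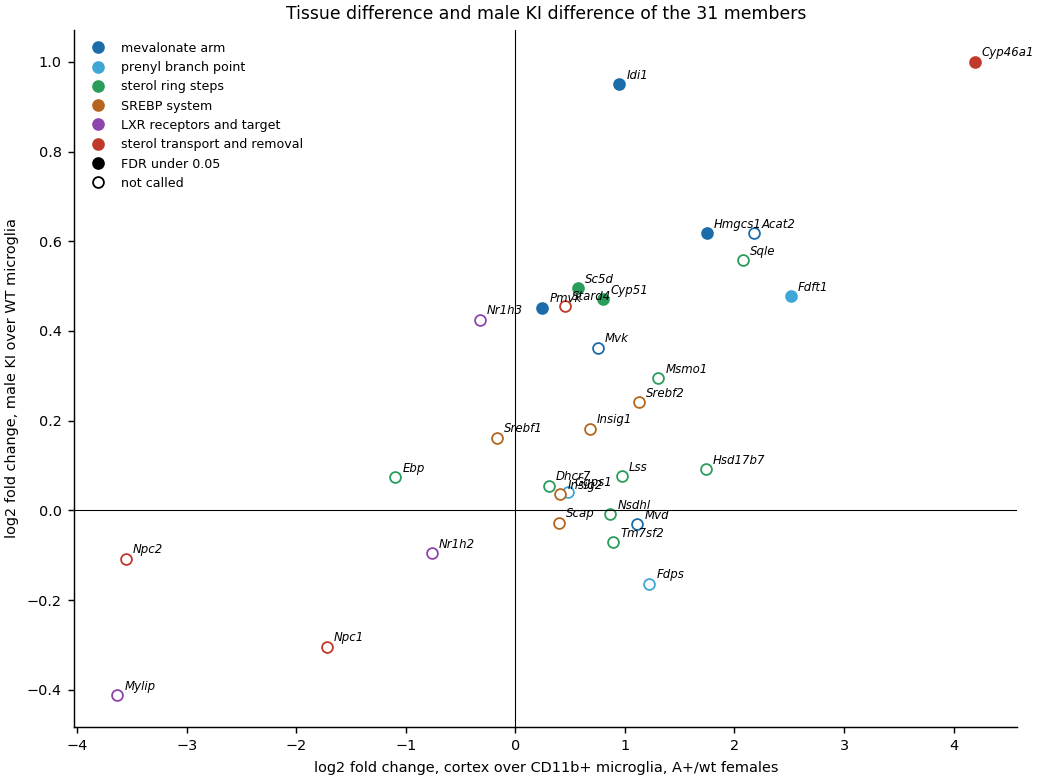
Log2FC of cortex over CD11b+ microglia in A+/Pwt/wt females (x axis) against log2FC of male KI over WT microglia (y axis) for the 31 members (1 point per gene, by role). The points run from *Mylip* at -3.64 and -0.41 to *Cyp46a1* at 4.19 and 1.00.

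The other genes of the pathway were described from 4 lists of 45 genes. In KI males, where 5.26% of all genes tested were lower and 11.1% higher, 0 of 12 genes that use isoprenoids were called. Of 10 genes of SREBP processing and sterol-regulated degradation, 2 were lower, the proteases *Mbtps2* (log2FC -0.35, FDR 0.0446) and *Mbtps1* (log2FC -0.27, FDR 0.0479) that release SREBP. Of 10 genes tested of sterol esterification, efflux and oxysterols, 3 were lower, the cholesterol exporter *Abca1* (236.6 ± 44.1 CPM, SD, in KI and 337.1 ± 21.6 CPM in WT, log2FC -0.51, FDR 0.043), the sterol hydroxylase *Cyp27a1* (log2FC -0.47, FDR 0.0455) and the esterifying enzyme *Soat1* (log2FC -0.34, FDR 0.0328), and 1 was higher, the oxysterol hydroxylase *Cyp7b1* (2.69 ± 0.46 against 1.19 ± 0.41 CPM, log2FC 1.18, FDR 0.0333). Of 12 intracellular sterol carriers, *Gramd1a* was lower (log2FC -0.47, FDR 0.0258). With 1 library left out, *Mbtps1*, *Mbtps2*, *Soat1*, *Cyp27a1* and *Gramd1a* were each called in 1 of 7 fits, *Abca1* in 2 and *Cyp7b1* in 3, and with no low-count filter *Mbtps1*, *Mbtps2*, *Soat1* and *Cyp27a1* were not called (FDR 0.0585 to 0.333). *Mbtps1* and *Cyp7b1* were named after their values were seen.

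In CD11b+ microglia of APP/PS1 females, A+/Pki/ki was compared with A+/Pwt/wt (n = 4 each). The edgeR test called 0 of 31 members, as it called 0.0% of the 17039 genes tested. At an unadjusted p under 0.05 there were 0 members and 575 genes, and DESeq2 and limma called 0 members, with 7 and 0 genes in all. The log2FC was positive in 13 members, with a median of -0.01 beside 0.0043 for all genes.

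*Hmgcs1* was at 48.9, 56.0, 57.2 and 71.9 CPM in A+/Pwt/wt and at 42.9, 46.8, 48.0 and 78.0 CPM in A+/Pki/ki mice (log2FC -0.17, interval -0.62 to 0.27). The groups overlapped, and A+/Pki/ki library 335 was above all others while the other 3 libraries were below all of A+/Pwt/wt. *Cyp46a1* was at 8.64, 10.4, 10.5 and 17.9 CPM and at 3.79, 5.35, 6.85 and 16.5 CPM (log2FC -0.60, interval -1.53 to 0.33), with the highest value of each group in libraries 331 and 335, which also had the highest neuron marker score of their groups (5.84 and 6.23 on a mean log2 CPM scale). *Nr1h3*, which senses oxysterols in macrophages, was at 3.32, 3.91, 3.92 and 4.52 CPM and at 1.94, 2.51, 2.77 and 3.80 CPM (log2FC -0.56, SE 0.25, interval -1.06 to -0.07, unadjusted p = 0.0544 and FDR 0.853 by edgeR). Its lower 3 A+/Pki/ki libraries were below all of A+/Pwt/wt, and the remaining library was within that range. *Insig2*, at 24.02, 24.36, 26.76 and 27.45 CPM against 27.97, 28.26, 29.36 and 29.81 CPM, was the only member without overlap, where 2.81% of tested genes did not overlap, and its log2FC was 0.11 (FDR 0.853).

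The intervals of these differences were wide for some members and narrow for others. They reached from -0.06 to 0.28 for *Insig2*, from -0.18 to 0.17 for *Ebp* and from -0.17 to 0.19 for *Ggps1*, but from -0.60 to 0.53 for *Npc1* and from -0.68 to 0.41 for *Pmvk*. All 6 enzymes of the mevalonate arm had a negative log2FC, between -0.24 (*Acat2*) and -0.01 (*Idi1*), but *Mvd* and *Idi1* turned positive with library size as the only scaling. The 12 neuron markers were negative as well (median -0.82, 0 called), with sums of 903.5 to 1637 CPM in A+/Pwt/wt and 182.1 to 2207 CPM in A+/Pki/ki mice, and the 12 microglia markers were positive (median 0.22, 0 called). The 6 neutrophil markers were positive (median 2.54), with 0 called and 6 at an unadjusted p under 0.05, and their sums were 42.1 to 127.7 CPM in A+/Pwt/wt and 36.02 to 1744 CPM in A+/Pki/ki mice. Library 335 had the highest neutrophil score of the A+/Pki/ki group (7.35, mean log2 CPM) and library 394 the lowest (1.70). The 6 choroid plexus markers were negative (median -1.12, 0 called), with sums of 917.6 to 4096 CPM and 177.7 to 3385 CPM. The part of neuronal, neutrophil or choroid plexus RNA in these values was not tested.

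The male and the APP/PS1 effects of the KI were compared in 1 fit of 15 libraries. Here the difference, the male effect minus the APP/PS1 effect, was called for 0 of 31 members by edgeR, where 0.0% of the 17619 genes tested were called. At an unadjusted p under 0.05 there were 12 members and 4664 genes, and DESeq2 called 3 members, *Acat2*, *Idi1* and *Nr1h3*, where it called 6.73% of all genes. The difference was positive in 24 of 31 members with a median of 0.22, beside 0.01 for all genes. With library size as the only scaling it was positive in 16 members with a median of 0.0090, beside -0.20 for all genes, and 0 members were called. It was 0.82 for *Hmgcs1* (interval 0.30 to 1.34), 0.89 for *Acat2* (0.39 to 1.38), 0.98 for *Idi1* (0.43 to 1.53), 0.84 for *Sqle* (0.34 to 1.35), 1.01 for *Nr1h3* (0.37 to 1.66), each at an FDR of 0.143, and 1.62 for *Cyp46a1* (0.45 to 2.78, FDR 0.145). Without A+/Pki/ki library 335, which had the highest neuron and neutrophil scores of its group, 10 members were called, among them *Hmgcs1*, *Cyp46a1* and, with a negative difference, *Mylip*, where that fit called 35.4% of its 17495 genes. Without any other library no member was called. Sex, transgenes and batch tag change together in this comparison and cannot be told apart.

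**Figure D4:**
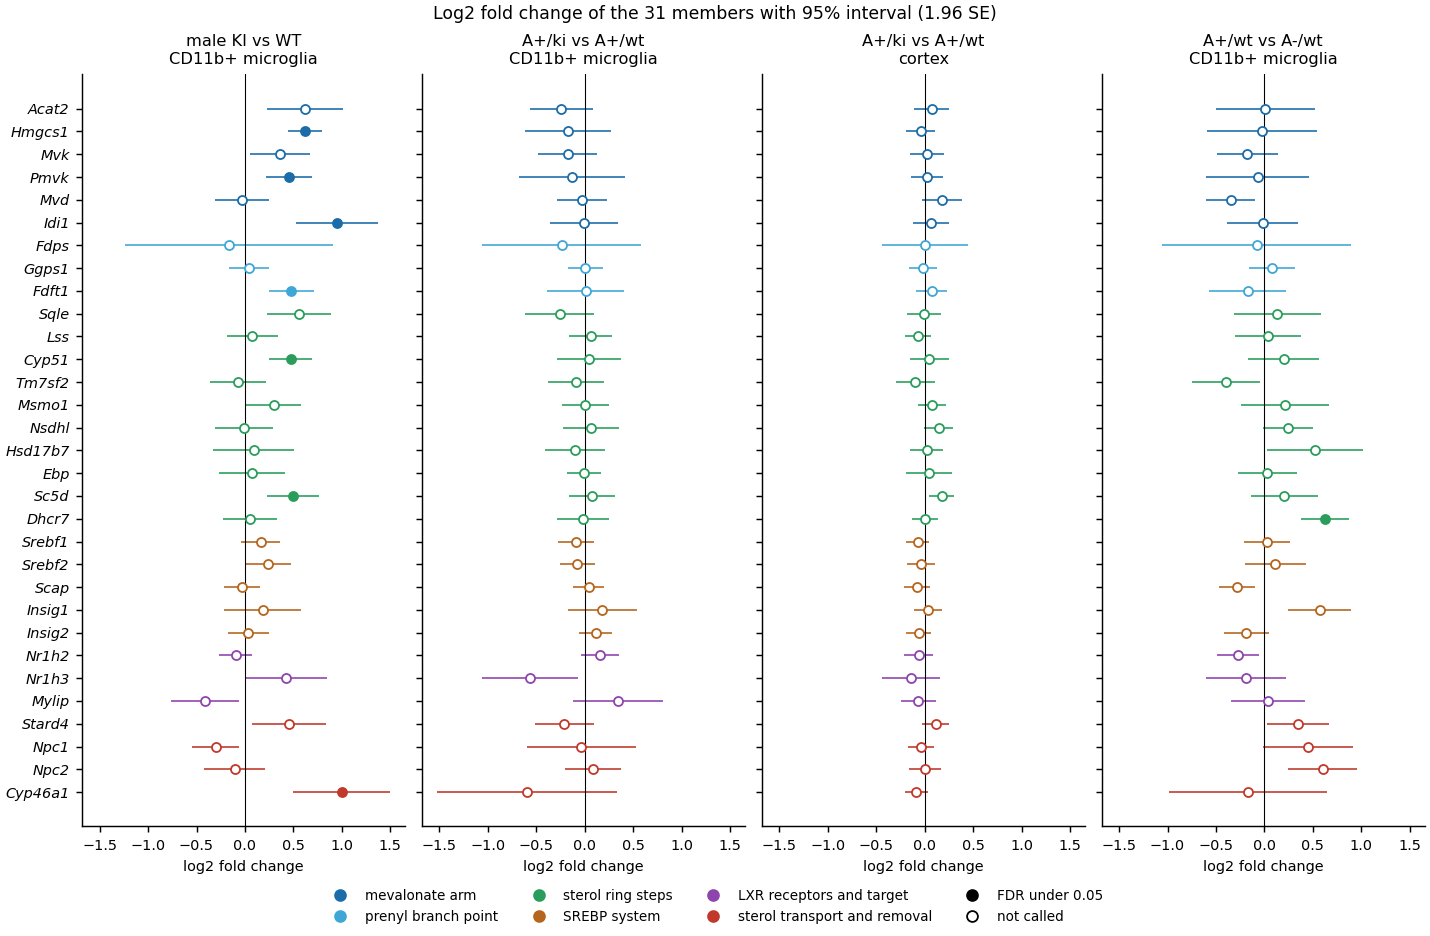
Log2FC of each of the 31 members with its 95% interval in 4 comparisons, colored by role, with filled points for an FDR under 0.05. The filled points are *Hmgcs1*, *Idi1*, *Pmvk*, *Fdft1*, *Cyp51*, *Sc5d* and *Cyp46a1* in males and *Dhcr7* for A+/Pwt/wt against A-/Pwt/wt females, and the intervals in cortex are narrower than in the other 3 comparisons for all members but 1.

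In cortex, A+/Pki/ki was compared with A+/Pwt/wt (n = 4 each), and edgeR called 0 of 31 members and 0.0% of the 18640 genes tested. At an unadjusted p under 0.05 there were 1 member and 514 genes, and DESeq2 and limma called 0 members, with 11 and 0 genes in all. The median log2FC of the members was 0.0034, beside -0.0018 for all genes, and 17 members were positive. The member was *Sc5d*, at 58.3, 61.0, 62.6 and 63.4 CPM in A+/Pwt/wt and at 62.5, 69.5, 72.3 and 73.5 CPM in A+/Pki/ki mice (log2FC 0.18, interval 0.05 to 0.31, unadjusted p = 0.0192 and FDR 1.0 by edgeR). The groups overlapped by 1 library, 222.

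*Hmgcs1* was at 223.7, 233.9, 261.4 and 278.9 CPM in A+/Pwt/wt and at 228.1, 240.6, 243.1 and 257.1 CPM in A+/Pki/ki mice (log2FC -0.04, interval -0.19 to 0.11). *Cyp46a1* was at 263.0 to 285.7 CPM and at 254.0 to 268.3 CPM (log2FC -0.08, interval -0.20 to 0.03). *Dhcr7* had a log2FC of 0.0009 (-0.13 to 0.13), and the largest log2FC besides *Sc5d* were those of *Mvd* (0.18, -0.02 to 0.39) and of the sterol dehydrogenase *Nsdhl* (0.15, -0.0020 to 0.30). A p that misses the threshold does not show equal levels, but a difference of 0.5 on the log2 scale lies outside each of these intervals. The single A-/Pwt/wt cortex library lay within the range of the 8 A+ libraries for 23 members, below it for 6 (*Fdps*, *Nsdhl*, *Srebf1*, *Nr1h3*, *Mylip* and *Npc2*) and above it for *Mvk* and *Scap*. *Npc2* was at 58.0 CPM there and at 79.3 to 104.0 CPM in the A+ libraries, and *Mylip* at 12.8 CPM against 16.9 to 20.8 CPM. With 1 library, this has no replicate check. A single library can fall outside the range of 8 others without a difference between genotypes. The share of all genes outside the range was not counted, so that these places are not read as effects of the transgene.

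The transgenes were examined in CD11b+ microglia of females, A+/Pwt/wt (n = 4) against A-/Pwt/wt (n = 7), with the batch tag changing along with the genotype. Of 31 members, 1 was called, *Dhcr7*, where 1.29% of the 17355 genes tested were called. At an unadjusted p under 0.05 there were 7 members and 1755 genes (10.1%). The log2FC was positive in 18 members with a median of 0.03, beside 44.6% positive and a median of -0.03 for all genes. The A+/Pwt/wt libraries are the same as in the comparisons with A+/Pki/ki and with cortex above.

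*Dhcr7*, which reduces the last double bond on the way to cholesterol, was at 14.6 to 18.5 CPM in A-/Pwt/wt (median 17.1) and at 19.59, 26.49, 28.42 and 29.02 CPM in A+/Pwt/wt mice (log2FC 0.62, SE 0.13, FDR 0.0329). Every A+ library was above every A- library, with library 331 closest to them. The call was kept in 3 of 11 fits with 1 library left out, those without A- library 223 or 245 or without A+ library 331. It was lost with library size as the only scaling (FDR 0.256), with no low-count filter, without A- library 224, 225, 236, 242 or 243 and without A+ library 367, 375 or 380, with log2FC of 0.56 to 0.72 and FDR of 0.00894 to 0.177 over the 11 fits. In A+/Pki/ki microglia *Dhcr7* was at 22.50, 27.43, 27.87 and 28.99 CPM, within the range of A+/Pwt/wt.

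Another 4 members did not overlap between the groups and were not called, where 3.35% of tested genes did not overlap. *Insig1* was at 20.9 to 37.4 CPM (median 26.4) in A-/Pwt/wt and at 37.7, 38.5, 42.7 and 43.9 CPM in A+/Pwt/wt mice (log2FC 0.57, SE 0.17, FDR 0.161), and it was called without A- library 223 (FDR 0.044). *Npc2* was at 352.1 to 699.6 CPM (median 624.3) and at 796.2, 807.7, 924.0 and 975.9 CPM (log2FC 0.60, SE 0.18, FDR 0.173). *Scap*, the SREBP escort, was at 53.5 to 64.6 CPM (median 60.8) and at 47.5, 48.3, 50.0 and 50.7 CPM (log2FC -0.28, FDR 0.225). *Mvd* had a log2FC of -0.35 (FDR 0.307). *Insig1* and *Npc2* were higher and *Scap* and *Mvd* lower in each A+ library, and DESeq2 called *Npc2* and *Scap* besides *Dhcr7*, where it called 3.66% of all genes. *Hmgcs1* spanned 31.7 to 93.8 CPM (median 58.2) in A-/Pwt/wt mice, a range that held all A+ libraries (log2FC -0.02, interval -0.59 to 0.55).

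The pathway lists added 2 called genes, both of sterol esterification, efflux and oxysterols (2 of 10 tested). *Ch25h*, which makes an oxysterol in activated macrophages, was at 19.0 ± 6.64 CPM (SD, n = 4) in A+/Pwt/wt and 3.25 ± 1.37 CPM (SD, n = 7) in A-/Pwt/wt mice (log2FC 2.56, SE 0.33, FDR 0.00193). *Nceh1*, a cholesteryl ester hydrolase, was at 64.91 ± 15.99 CPM and 21.8 ± 2.16 CPM (log2FC 1.59, SE 0.15, FDR 0.000179). Both were called in all 11 fits with 1 library left out. None of the genes of SREBP processing, isoprenoid use or sterol carriers was called. The neuron markers had a median log2FC of 0.01 and the microglia markers of -0.02, with 0 of 12 called in each, and 2 of 7 border macrophage markers were called lower (median -1.01). The numbered mice are the replicates, so that p-values set the difference between groups against the spread between mice. The batch tag changes with the genotype here, and a difference between batches would be part of the difference tested.

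The 7 A-/Pwt/wt libraries differed in neuron markers and in several members. Libraries 223 and 236 had the highest neuron marker scores (7.15 and 6.20, mean log2 CPM) and libraries 242 and 245 the lowest (3.86 and 4.07). The score of the mevalonate arm was 4.28 and 4.35 in the former and 3.50 and 3.39 in the latter. For 9 members the highest 2 CPM values were those of libraries 223 and 236. These members were *Acat2*, *Hmgcs1*, *Pmvk*, *Fdft1*, *Sqle*, *Cyp51*, *Msmo1*, *Srebf1* and *Cyp46a1*, of which 5 were among the 7 called in males. For *Nr1h2* and *Mylip* libraries 223 and 236 were the lowest 2. The share of all genes with these patterns was not counted, so that the counts cannot be read as a trait of the module. *Hmgcs1* was at 89.3 and 93.8 CPM in libraries 223 and 236 and at 32.3 and 31.7 CPM in libraries 242 and 245. These libraries share a genotype and a batch tag. The mean score of all 31 members was 4.36 ± 0.04 (SD, n = 3) in WT males, 4.57 ± 0.09 (n = 4) in KI males, 4.49 ± 0.18 (n = 7) in A-/Pwt/wt, 4.58 ± 0.03 (n = 4) in A+/Pwt/wt and 4.56 ± 0.04 (n = 4) in A+/Pki/ki females, and 5.45 ± 0.09 and 5.46 ± 0.04 (n = 4 each) in A+/Pwt/wt and A+/Pki/ki cortex. Male microglia, female microglia and cortex were scaled apart, so that scores are comparable within each of them but not between them.

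**Figure D5:**
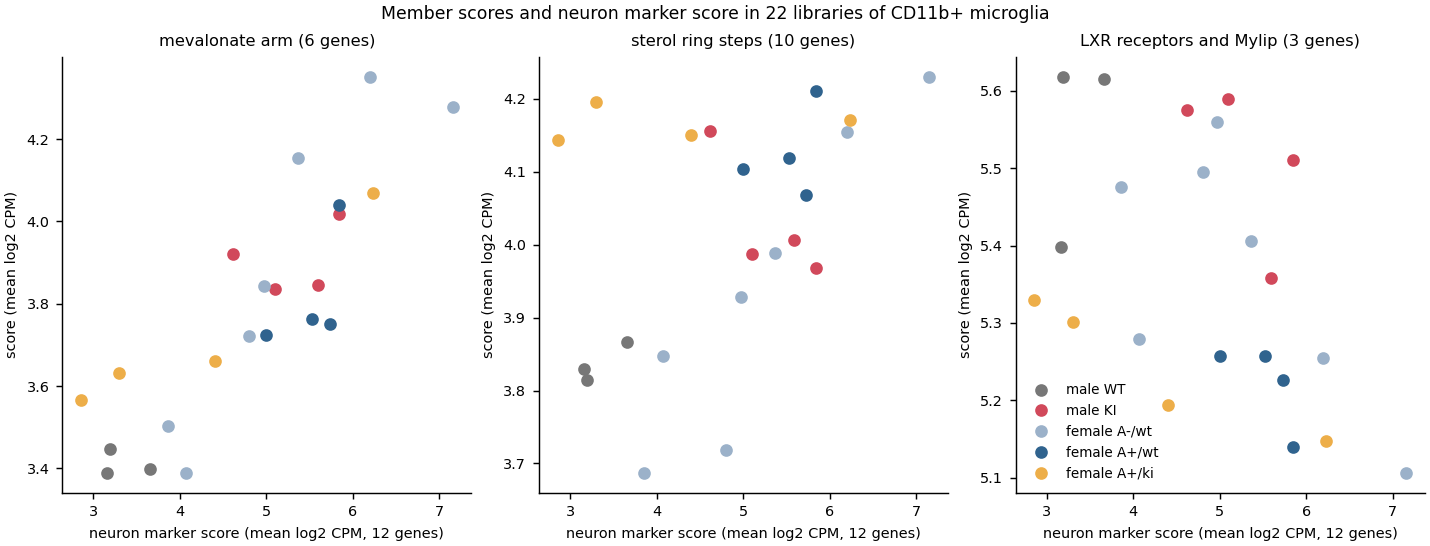
Score (mean log2 CPM) of the mevalonate arm, of the sterol ring steps and of the LXR group against the neuron marker score (mean log2 CPM of 12 genes) in the 22 libraries of CD11b+ microglia, by group. The neuron score is 3.16 to 3.66 in WT males and 4.62 to 5.84 in KI males, and the A-/Pwt/wt females run from 3.86 to 7.15. Male and female libraries were scaled apart, so that scores are not comparable between males and females.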

How the data were processed

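The deposited values were raw counts per gene in 3 tables (cortex, female CD11b+ cells, male CD11b+ cells). Per the methods, the authors sequenced poly(A) RNA in paired ends, checked reads with FastQC 0.11.7, trimmed them with Trimmomatic 0.39 and aligned them to GRCm38 with STAR 2.7.9a. Uniquely mapped primary alignments were counted with featureCounts irrespective of strand. The methods name version 2.12.0 of featureCounts and later ones without assigning them to tables. The authors also deposited log2-like variance-stabilized values made by DESeq2 within each table, which were used for limma only. Groups came from the labels.

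A gene entered a test if 3 or more of its libraries held 10 or more counts. Tests were run with edgeR 4.0.16 in R 4.3.3 (quasi-likelihood, TMM scaling), with fits of only the libraries compared and 1 joint fit for the difference of KI effects. P-values were adjusted over all tested genes by Benjamini-Hochberg (FDR 0.05), and SE came from log2FC and F. Intervals are the log2FC ± 1.96 SE and make no allowance for the small number of libraries. The tests were checked on simulated data, where edgeR found few of the changed genes in A+/Pki/ki against A+/Pwt/wt microglia and in the difference of KI effects, so that 0 calls there say little about the size of a difference, and DESeq2 found more of them in each comparison with more false calls. CPM was scaled by TMM within each table, and over the 8 libraries for cortex against microglia. Scores are means of log2 CPM with a prior count of 2. Alternatives were DESeq2 1.42.0, limma 3.58.1, other scalings (library size only added after the data were seen) and filters, a log2FC limit of 0.5 and leaving out each library. Shared stretches, exon lengths and positions were computed from Gencode models of GRCm38, and promoters came from RefSeq. The Gencode release was an earlier one than that used by the authors for counting, so that exons can differ. A length was found for 55141 of the 55401 genes.

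The members and lists were chosen with earlier results of these data known. Named were all 31 members and, of the 4 pathway lists, up to 5 called genes per comparison whose mean reached 5 CPM and whose groups did not overlap, by size of log2FC. The 10 marker lists (microglia, neuron, astrocyte, oligodendrocyte, oligodendrocyte precursor, endothelial and mural, choroid plexus, border macrophage, neutrophil, lymphocyte) were given by counts and ranges.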

Additional observations from a re-analysis of the deposited data

Results flagged for a closer look

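In 15 of 192 groups of values, 1 library stood apart from the others of its group by Dixon's criterion, where chance gives about 1 in 20 (9.6). In A+/Pki/ki microglia, library 335 was at 78.04 CPM for *Hmgcs1* (nearest library 48.04) and 22.98 CPM for *Fdft1* (nearest library 15.59). In A+/Pwt/wt cortex, library 329 was at 19.81 CPM for *Mvk* (nearest library 23.99), 58.84 CPM for *Ggps1* (nearest library 51.92) and 44.87 CPM for *Nr1h2* (nearest library 54.56). In A-/Pwt/wt microglia, library 245 was at 36.61 CPM for *Ggps1* (nearest library 29.34) and 15.45 CPM for *Tm7sf2* (nearest library 10.81). In A+/Pwt/wt microglia, library 331 was at 19.73 CPM for *Fdft1* (nearest library 15.15) and 5.368 CPM for *Hsd17b7* (nearest library 6.687). In A-/Pwt/wt microglia, library 223 was at 22.05 CPM for *Lss* (nearest library 12.94), 43.2 CPM for *Sc5d* (nearest library 31.18) and 162.6 CPM for *Srebf2* (nearest library 108.0). In male KI microglia, library 104 was at 13.2 CPM for *Tm7sf2* (nearest library 10.16). In A+/Pki/ki cortex, library 216 was at 26.05 CPM for *Nsdhl* (nearest library 30.06). In A+/Pki/ki microglia, library 405 was at 79.24 CPM for *Srebf1* (nearest library 71.68).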

How the results depend on the processing

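With other settings than leaving out a library, 75 of the main values (counts of called members, medians, scores) stayed within the spread or within 1.5 times the count and 15 did not. Among single genes, 329 stayed on their side of the threshold, 10 came to pass it, 10 no longer passed it and 2 changed sign. With library size as the only scaling, added after the data were seen, called members numbered 3 in males and 0 for A+/Pwt/wt against A-/Pwt/wt (129 genes in all, against 224 with TMM), and the median of the members became 0.052 in males, 0.059 for A+/Pki/ki against A+/Pwt/wt microglia, 0.009 for the difference of KI effects and 1.117 for cortex against microglia, where *Srebf1* (0.195) and *Nr1h3* (0.042) changed sign. Called members in males also numbered 3 with a log2FC limit of 0.5. For A+/Pwt/wt against A-/Pwt/wt they numbered 0 with no low-count filter and 3 by DESeq2, and for the difference of KI effects 3 by DESeq2. The median of the members became 0.152 for that difference with no low-count filter and 0.045 for A+/Pki/ki against A+/Pwt/wt microglia in a fit of all female groups. With the median in place of the mean over members, the score difference was 0.365 in males, 0.109 for A+/Pki/ki against A+/Pwt/wt microglia and 0.237 for A+/Pwt/wt against A-/Pwt/wt. Over all genes, 40 were called in cortex with no low-count filter, against 0. The causes were not tested. With 1 library left out, called members ranged from 1 to 13 in males, from 0 to 2 for A+ against A- mice, from 27 to 29 for cortex against microglia and from 0 to 10 for the difference of KI effects, and were 0 throughout for A+/Pki/ki against A+/Pwt/wt in both tissues. Calls over all genes in such fits ranged from 894 to 5439 in males, from 91 to 497 for A+ against A- mice and from 0 to 6199 for the difference of KI effects. The medians ranged from 0.133 to 0.226 in males, from -0.045 to 0.003 and from -0.030 to 0.054 for A+/Pki/ki against A+/Pwt/wt microglia and cortex, from 0.004 to 0.082 for A+ against A- mice, from 0.704 to 0.831 for cortex against microglia and from 0.104 to 0.324 for the difference of KI effects. No paired analysis was possible because the groups compared share fewer than 2 replicate numbers. Groups of 3 and 4 limited the male comparison, bulk RNA held other cell types, *Fdps* was near the low-count limit in microglia, and sex, transgene and batch could not be told apart between tables.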

Other observations

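Between cortex and CD11b+ microglia of A+/Pwt/wt females, the other genes of the pathway were counted in both directions, where 40.2% of all genes were higher in cortex and 37.7% lower. Of 10 genes tested of sterol esterification, efflux and oxysterols, 8 were lower in cortex and 2 were higher, with a median log2FC of -2.41. *Ch25h*, which makes 1 of the oxysterols, had a log2FC of -4.01, the sterol hydroxylase *Cyp27a1* of -2.86, the exporter *Abca1* of -2.77, the lysosomal lipase *Lipa* of -2.71 and the phospholipid remodeling enzyme *Lpcat3* of -2.11. Of 10 genes of SREBP processing and degradation, 6 were lower and 1 was higher (median -0.32), of 12 sterol carriers 7 were lower and 4 higher (median -0.42), and of 12 genes of isoprenoid use 3 were lower and 6 higher (median 0.27).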
